A study of Homo sapiens with 4 samples.

Results

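The genes of the cytosolic ribosomal proteins were examined in RNA-seq libraries of 2 human breast cancer cell lines. Members were chosen by symbol: RPL or RPS followed by a number and at most one of the letters A, X or L, together with RPLP0, RPLP1, RPLP2 and RPSA, protein-coding and on an autosome or the X chromosome. The S6 kinase genes, whose symbols begin with RPS6K, were left out. The rule found 81 of the 50653 genes in the expression table, 49 of the large subunit (RPL) and 32 of the small subunit (RPS). Of these, 79 reached a mean of 1 FPKM (fragments per kilobase of transcript and per library total) over the 4 libraries and entered the tests, with 14321 genes tested in all. The other 2 were RPL10L, listed at 0 in every library, and RPL3L, at 0.165 to 0.581 FPKM.

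Both cell lines are established models of triple-negative breast cancer, BT-20 being one and MDA-MB-468 the other. Each was transduced with a lentiviral pLKO.1-puro vector carrying a control shRNA or an shRNA against QPRT, and selected with puromycin. A short hairpin RNA directs the degradation of a matching mRNA, and QPRT encodes an enzyme of the kynurenine pathway of NAD synthesis. The 4 groups were BT-20 cells with control shRNA, BT-20 cells with QPRT shRNA, MDA-MB-468 cells with control shRNA and MDA-MB-468 cells with QPRT shRNA. Each group held 1 library, so no difference within a line has a replicate check. The lines were grown in different media, and line and medium cannot be told apart. The libraries held 10321996 to 10945948 fragments. The targeted gene had 249 FPKM in BT-20 control and 40.5 FPKM in BT-20 knockdown cells, and 117 and 18.3 FPKM in the MDA-MB-468 pair. The epithelial genes EPCAM, KRT8, KRT18 and KRT19 were present in all 4 libraries. Of the receptors whose clinical absence defines the tumour type, PGR was listed at 0, ESR1 at 1.05 to 5.76 FPKM and ERBB2 at 50.7 to 129 FPKM. The 4 leukocyte markers summed to at most 0.34 FPKM and the 3 fibroblast markers to 15.1 to 32.4 FPKM. Of the endothelial markers, CDH5 had 96.5 and 134.5 FPKM in the BT-20 pair and 1.24 and 0.912 FPKM in the MDA-MB-468 pair.

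The ribosome is built from ribosomal RNAs and from the ribosomal proteins, of which the mature particle holds mostly a single copy each. The genes of these proteins are among the most strongly transcribed of growing cells. Many mRNAs of these genes begin with a 5' terminal oligopyrimidine (TOP) tract, a cytosine followed by an unbroken run of C and T. Through it translation is adjusted to nutrients and mTOR activity. Introns of several of these genes hold small nucleolar RNAs, and the human genome carries many processed pseudogenes of them.

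The start regions show how widely that tract is shared. RefSeq windows of 300 bases, 250 before and 50 after the annotated start (GRCh38.p14), were matched by symbol to 64 of the 81 members. A run of at least 5 letters of C and T that opened with C within 5 bases of the start was found in 50 of the 64 (78.1%), against 21.1% of all 27305 windows. Runs of at least 8 letters were found in 40 members (62.5%) and in 5.36% of all windows. Letters of C or T before that opening C were not counted. The longest runs so counted belonged to RPL39, with 22 letters, and RPL7A, with 21. In RPL7A the C and T letters continue before the counted run, so its unbroken tract is longer. The members below were printed because the results turn on them or because they hold the longest runs, each as 10 bases before and 20 bases from the start onward, 5' to 3', with the run in capitals.
RPL39 (chrX:119791611-119791640, minus strand): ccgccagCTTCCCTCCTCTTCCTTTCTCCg
RPL7A (chr9:133348208-133348237, plus strand): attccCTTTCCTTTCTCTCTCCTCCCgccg
RPL35 (chr9:124861938-124861967, minus strand): cgcctaCTTCCTCTTTCCCTCggagcgggc
RPS12 (chr6:132814559-132814588, plus strand): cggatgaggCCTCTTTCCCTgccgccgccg
RPL36A (chrX:101391001-101391030, plus strand): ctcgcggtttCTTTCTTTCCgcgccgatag
RPS3A (chr4:151099618-151099647, plus strand): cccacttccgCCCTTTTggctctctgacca
RPS27 (chr1:153990752-153990781, plus strand): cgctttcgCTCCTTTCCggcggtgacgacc
Members without such a run at the annotated start included a paralog, RPS27L, and 4 genes named in the comparisons below. They show that members high in MDA-MB-468 were found on either side of this division.
RPS27L (chr15:63157458-63157487, minus strand): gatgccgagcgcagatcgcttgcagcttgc
RPS4X (chrX:72277229-72277258, minus strand): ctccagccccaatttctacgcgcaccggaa
RPL10 (chrX:154398055-154398084, plus strand): ccactctcagaaatatacgtctgtcacagt
RPS15 (chr19:1438386-1438415, plus strand): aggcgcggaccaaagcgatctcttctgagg
RPS29 (chr14:49598691-49598720, minus strand): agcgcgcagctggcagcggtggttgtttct
A RefSeq start is a single annotated position, and the absence of these letters says nothing about the starts used in these cells.

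Among short letter strings searched on both strands of the 300-base windows, CCGGAA was found in 35 of 64 members (54.7%) and in 17.6% of all windows. The string CTTTCC was found in 29 members (45.3%) against 26.3% of all windows, and it can lie within the pyrimidine run. On the coding strand within 15 bases of the start it was present in 16 members (25%) and 1.48% of all windows. GGGCGG was found in 36 members (56.2%) and 44.6% of windows, TATAAA in 6 (9.38%) and 12%, and CACGTG in 3 (4.69%) and 7.43%.

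Ribosomal protein genes stood near the top of each library. Together the 81 rows held 9.25% of the summed FPKM in BT-20 cells with control shRNA, 8.61% with QPRT shRNA, 8.65% in MDA-MB-468 cells with control shRNA and 9.78% with QPRT shRNA. Of the 100 highest rows of a library, 35 to 41 were members. The median member had 806, 748, 694 and 822 FPKM in the same order, above 99.76% to 99.81% of all rows. Both lines therefore carried the module at a similar level, and the order of the shRNAs differed between them.

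Among the highest members by mean were RPS18, RPL13A, RPLP0 and RPL41. RPS18, a protein of the small subunit head, had 2159 FPKM in BT-20 control cells, 2152 after knockdown, and 2345 and 2838 FPKM in the MDA-MB-468 pair. RPL13A had 1889, 1790, 2179 and 2446 FPKM in the same order. No single gene led everywhere: RPL8 was highest in control BT-20 cells and RPS18 in both MDA-MB-468 libraries. RPLP0, the base of the ribosomal stalk, had 1841, 1877, 1846 and 2358 FPKM. Its stalk partners RPLP1, with 1140, 1041, 694 and 838 FPKM, and RPLP2, with 1100, 963, 734 and 822 FPKM, were lower per length. RPL41, which encodes a very short peptide, had 2293, 2052, 1619 and 1780 FPKM.

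**Figure D1:**
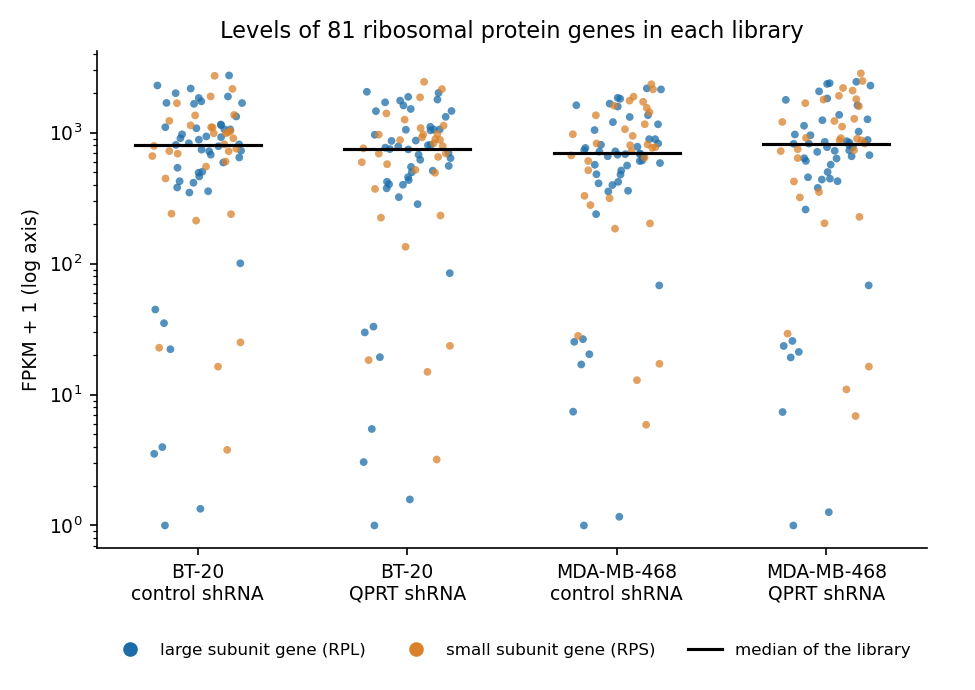
FPKM + 1 of the 81 members in each of the 4 libraries on a log axis, 1 point a gene, with the median of each library as a bar (806, 748, 694 and 822 FPKM). In every library 69 members lay at or above 100 FPKM and 12 lay below.

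The 12 members with a mean under 100 FPKM stood apart from the other 69. Besides RPL10L and RPL3L they were RPS10, RPL17, RPL36A, RPS23, RPS27L, RPL26, RPS15A, RPL23A, RPL39L and RPL30. RPS10 had 2.78, 2.19, 4.88 and 5.85 FPKM, and RPL17 2.53, 2.05, 6.40 and 6.35 FPKM. Both are core components of the ribosome, and their listed levels lay far below those of their partners. In GENCODE 29 another gene on the same strand covers at least 50% of the coding bases of 4 of the 12, namely RPL17 (98.2%, the read-through gene RPL17-C18orf32), RPL36A (67.3%, RPL36A-HNRNPH2), RPL26 (60.7%) and RPS10 (56.9%, RPS10-NUDT3). It does so for 2 of the 69 others, among them RPL22. On the opposite strand, 57.1% of the coding bases of RPS23 and 51.4% of those of RPL30 were covered. Whether the counting used strand is not given in the sources used here, and the part of such overlaps in these levels was not tested. The values of these members are uncertain as gene levels.

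Paralogs written by the same rule were much lower than their ubiquitous partners. RPL3, next to the catalytic centre of the ribosome, had 1683, 1464, 2139 and 2289 FPKM, whereas RPL3L, a muscle paralog, stayed under 1 FPKM. RPL39 had 1328, 1321, 892 and 840 FPKM and its testis paralog RPL39L 43.6, 28.8, 24.3 and 22.5 FPKM. RPS27 had 1891, 1862, 1754 and 1914 FPKM, and RPS27L, a p53 target, 24.0, 22.5, 16.2 and 15.4 FPKM. RPL10L, a testis paralog of RPL10, was listed at 0, as was EEF1G, which every cell uses, so no level is read from that listing.

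Summed over the module, pseudogenes were a small part of the signal. The table held 1586 rows named as pseudogenes of ribosomal protein genes, and 77 members had at least 1. Together they had 0.36% to 0.41% as many fragments as the members. For some members under 100 FPKM the part was large. The pseudogene rows of RPL36A summed to 4.53, 5.67, 9.62 and 7.86 FPKM, beside 2.97, 4.46, 15.97 and 18.2 FPKM for the gene. Those of RPL23A summed to 20.3, 22.4, 28.5 and 34.0 FPKM, beside 34.1, 32.0, 25.5 and 24.7 FPKM. RPS2P5 was the highest, with 175, 106, 109 and 143 FPKM beside 1678, 1402, 1358 and 1680 FPKM for RPS2. Reads of a member and of its near-identical copies cannot be fully told apart, and how multiply mapped reads were counted is not given in the sources used here.

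With QPRT shRNA, ribosomal protein genes were slightly lower in BT-20 and slightly higher in MDA-MB-468. In BT-20, 75 of 79 members were lower and 4 higher with QPRT shRNA, with a median difference of -0.14 on the log2(FPKM + 1) scale, where all tested genes had a median of 0.05. In MDA-MB-468, 72 of 79 were higher and 7 lower, with a median of 0.17 against 0.01 over all tested genes. A lower value in BT-20 together with a higher one in MDA-MB-468 was found for 68 of 79 members, and for 24.8% of all genes tested. Centring each library on its median moved the median of all genes in BT-20 from 0.05 to -0.06 and that of the members to -0.25. With TPM scaling the members' median there was -0.0961, with 62 lower and 17 higher. The shifts were small for single genes and shared by nearly all of them. Both subunits shared it, with medians of -0.13 and 0.16 for the large subunit and -0.15 and 0.19 for the small subunit. In bulk RNA, fewer cells of a type and less RNA per cell cannot be told apart, and FPKM is relative to the whole library.

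**Figure D2:**
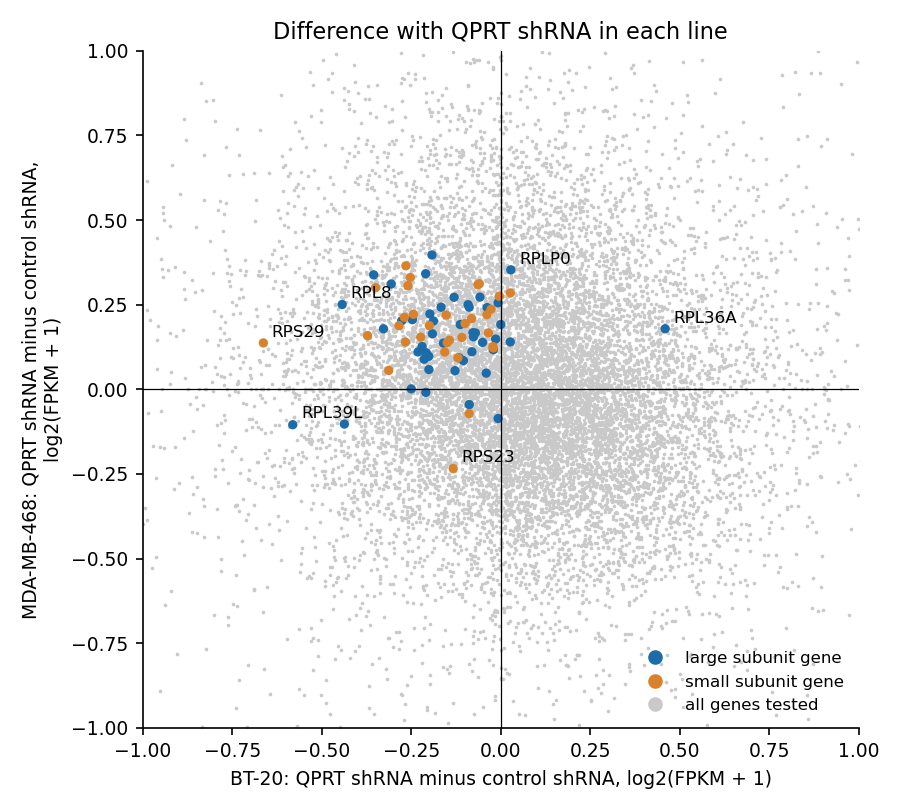
Difference with QPRT shRNA in BT-20 (x) and MDA-MB-468 (y), log2(FPKM + 1), for 79 members (blue and orange) over all 14321 genes tested (grey; 479 lie outside the axes). Of the members, 68 lie in the upper left part, lower in BT-20 and higher in MDA-MB-468. The same signs were found for 24.8% of all genes tested.

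Summed over the members, fragments per library fell by 0.16 on the log2 scale in BT-20 (exact Clopper-Pearson 95% interval -0.16 to -0.15) and were higher by 0.20 in MDA-MB-468 (0.19 to 0.20). These intervals cover counting error only, not the variation between cultures. Gene by gene, the interval lay below 0 for 56 members in BT-20, above 0 for none, and held 0 for 23. Of the 14141 tested genes with fragments in the BT-20 pair, 16.8% lay below 0 and 27.0% above, and of the 1447 genes at 100 FPKM or more 45.5% and 27.3%. In MDA-MB-468 it lay above 0 for 67 members, below 0 for RPL32 and RPL39, and held 0 for 10. There 23.1% of 14106 genes lay above 0 and 21.3% below, and 33.8% and 37.0% of those at 100 FPKM or more.

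The test over both lines called none of the members. In limma, with the line as a block, 0 of 79 members had an adjusted p under 0.05 (0.628% of all genes did) and 0 had an unadjusted p under 0.05 (687 of 14321 genes did). The lowest adjusted p of a member was 1, and limma-voom on recovered fragments called 0 members as well. Both lines enter this test as replicates, so opposite differences cancel in it. The difference between the 2 responses, with a median of 0.30 over the members, could not be tested with 1 library per group.

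Few members moved by 1.5-fold. In BT-20, 1 of 79 members was lower by at least 1.5-fold (3.27% of all genes tested) and none was higher (5.7%). In MDA-MB-468 none was higher (5.46%) and none lower (3.71%). The member past this limit was RPS29, a zinc-binding protein of the small subunit head, with 212 FPKM in control and 134 FPKM in knockdown BT-20 cells, a difference of -0.66. In MDA-MB-468 its values were 184 and 202 FPKM. The SD of the difference over members was 0.151 for BT-20 and 0.117 for MDA-MB-468, against 0.361 and 0.369 over all genes tested. Quartiles were -0.24 to -0.06 and 0.11 to 0.24 for members, and -0.15 to 0.26 and -0.18 to 0.22 for all genes tested. Other genes at 100 FPKM or more had quartiles of -0.21 to 0.10 and -0.17 to 0.13. The part of expression level in the narrow spread was not tested.

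The next lowest differences in BT-20 were those of RPL39L (-0.58), RPL8 (-0.44), RPL32 (-0.44) and RPS3A (-0.37). RPL8, which contacts the peptidyl transferase centre, had 2736 FPKM in control and 2012 FPKM in knockdown BT-20 cells, and 1360 and 1619 FPKM in MDA-MB-468. RPL32 had 741 and 547 FPKM in BT-20 and 477 and 444 FPKM in MDA-MB-468, lower with QPRT shRNA in both lines. The 4 members with a higher value in BT-20 were RPL36A (0.46), RPLP0, RPS12 and RPL31 (0.03 each). Of these RPL36A rested on few fragments, with 2.97 and 4.46 FPKM, and its counting interval of -0.19 to 1.39 held 0.

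In MDA-MB-468 large differences included those of RPS28 (0.36), RPLP0 (0.35), RPL35 (0.34) and RPL28 (0.34). RPS28 had 328 and 423 FPKM in MDA-MB-468 and 446 and 371 FPKM in BT-20. The 7 lower members in MDA-MB-468 were RPS23 (-0.23), RPL39L (-0.10), RPL32 (-0.10), RPL39 (-0.09), RPS27L (-0.07), RPL23A (-0.05) and RPL17 (-0.01). All 7 were lower in BT-20 as well, and 5 of them belong to the 12 members under 100 FPKM.

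Single roles followed the same pattern with different sizes. RPL5 and RPL11, which bind the 5S ribosomal RNA and can inhibit MDM2, differed by -0.13 and -0.22 in BT-20 and by 0.05 and 0.13 in MDA-MB-468. RPS6, the substrate of S6 kinase, differed by -0.03 and 0.24, and RPS19, the gene most often affected in Diamond-Blackfan anaemia, by -0.11 and 0.15. RPSA, also known as the laminin receptor, had 1096 and 920 FPKM in BT-20 and 721 and 907 FPKM in MDA-MB-468, differences of -0.25 and 0.33. Across the 79 members the sizes of the 2 responses were nearly unrelated, with Pearson's r of 0.0816 and Spearman's rho of 0.0315. All members of a line share their libraries.

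Members were also compared with genes of like length and GC content. Members ranged from 481 to 1707 bases in mean transcript length, with a median of 882 against 1500 over all tested genes, and from 41.8% to 63.6% GC. Protein-coding genes within both ranges, 5554 in number, had a median of -0.02 for BT-20 and one of 0.04 for MDA-MB-468, nearer 0 than the members' -0.14 and 0.17. Set against the median of the 50 genes nearest to it in length and GC, a member was lower in 53 of 79 cases in BT-20 and higher in 69 of 79 in MDA-MB-468. For BT-20 those near genes had a median of -0.0869 themselves, and the median of member minus near genes was -0.086. For MDA-MB-468 the corresponding values were 0.0432 and 0.138. Once the GC and length trend was taken out of each library, the members' medians were -0.12 and 0.13, with 65 lower in BT-20 and 74 higher in MDA-MB-468. The 1378 other genes at 100 FPKM or more had medians of -0.06 and -0.02.

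Within the module, members richer in GC had larger differences. Pearson's r between GC content and the difference over the 79 members was -0.293 in BT-20 (rho -0.317) and 0.520 in MDA-MB-468 (rho 0.522). The corresponding values for log2 length were -0.145 and -0.0419. The sign of the GC relation was opposite in the lines, as was the sign of the members' median. Genes outside the module varied as well. In MDA-MB-468 the median of the 50 near genes was lowest at RPS27L (41.8% GC), with -0.21, and highest at RPS15 (62.2%), with 0.28. In BT-20 it was highest at RPS27L, with 0.15, and lowest at RPLP2 (56.9%), with -0.28. The GC relation is therefore not read as particular to the members.

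**Figure D3:**
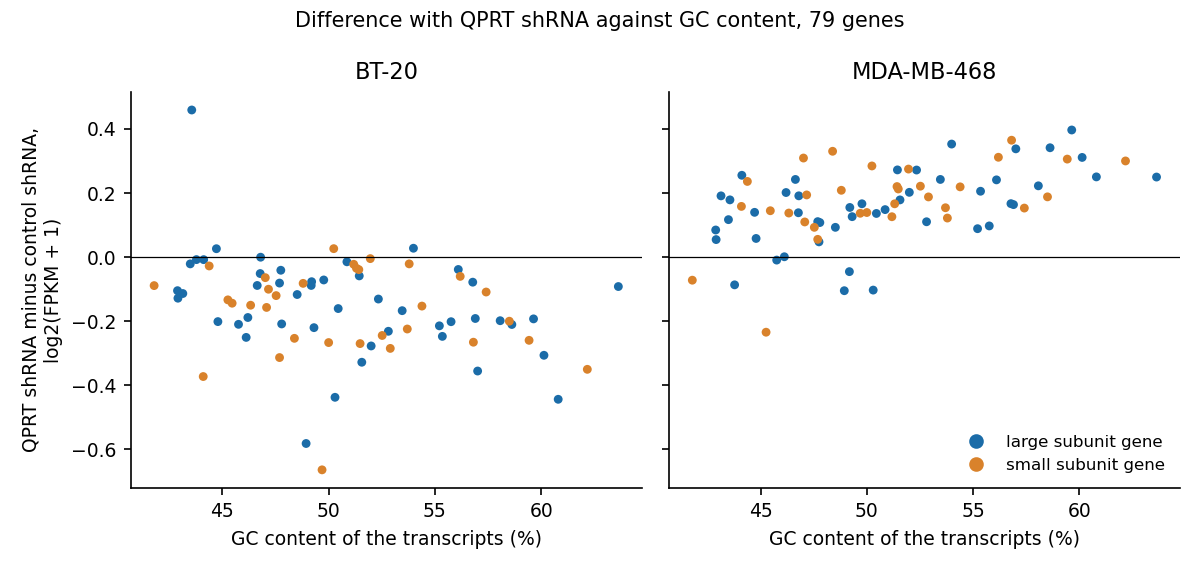
Difference with QPRT shRNA, log2(FPKM + 1), against the GC content of the transcripts in percent for 79 members, BT-20 left and MDA-MB-468 right. The points slope down in BT-20 (r = -0.293) and up in MDA-MB-468 (r = 0.520).

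Markers of other tissues also moved with the shRNA. All 5 intestinal and plasma cell markers listed (LYZ, PIGR, IGHA1, SLC26A3 and JCHAIN) were lower with QPRT shRNA in both lines, with summed levels of 57.8 and 23.1 FPKM for the BT-20 pair, 133 and 23.3 FPKM for the MDA-MB-468 pair. Their direction was the same in both lines and that of the ribosomal protein genes was opposite. The basal keratins KRT5, KRT14 and KRT17 were each listed lower in BT-20 and higher in MDA-MB-468 with QPRT shRNA. In BT-20 KRT14 rested on 4 and 2 fragments and KRT17 on 30 and 28, too few to read a direction there. KRT5 had 294, 265, 642 and 983 FPKM in the order of the groups, KRT14 0.330, 0.161, 5.76 and 40.6 FPKM, and KRT17 2.76, 2.51, 237 and 373 FPKM. The 7 epithelial markers summed to 12200, 12500, 8310 and 8190 FPKM in that order, and the 3 endothelial markers to 101, 140, 2.59 and 2.37 FPKM. The part of these markers in the members' differences was not tested.

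Other parts of the translation machinery were described by the same values. The 78 mitochondrial ribosomal protein genes, encoding the separate ribosome of mitochondria, had medians of -0.13 in BT-20, with 58 lower, and 0.14 in MDA-MB-468, with 59 higher. Ribosomal protein genes outside the symbol rule, among them RACK1 and FAU, had medians of -0.14 and 0.15 over 7 genes. FAU, which encodes a precursor of RPS30, had 194 and 142 FPKM in BT-20 and 287 and 338 FPKM in MDA-MB-468. Of 16 other genes with TOP mRNAs, 15 were tested, with medians of -0.02 and 0.02. Their medians lay between the ribosomal protein genes and 0, and EEF1A1 had 3101 and 3121 FPKM in BT-20 and 7496 and 8105 FPKM in MDA-MB-468. EEF1G, another of these genes, was listed at 0 in all libraries. Medians were 0.00 and 0.12 for 23 ribosome assembly factors, 0.00 and 0.18 for 11 small nucleolar RNA host genes, 0.20 and 0.18 for 11 RNA polymerase I genes, and 0.19 and 0.10 for 11 regulators. In limma over both lines, no gene of these lists was called. MYC, a transcriptional activator of ribosome genes, had 79.4 and 80.5 FPKM in BT-20 and 103 and 138 FPKM in MDA-MB-468, a difference of 0.02 and 0.42.

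Between the lines, the members' median lay near 0, and single members differed in both directions. The median difference, MDA-MB-468 minus BT-20, was 0.00 with 40 members higher in MDA-MB-468 and 39 higher in BT-20, where all tested genes had a median of 0.10. It was -0.16 between the control shRNA libraries and 0.18 between the QPRT shRNA libraries. Limma with the shRNA as a covariate called 17 members higher in MDA-MB-468 (30.7% of all genes tested) and 16 higher in BT-20 (24.4%) at an adjusted p under 0.05, of 79 tested, shares of members below those of all genes. Both MDA-MB-468 libraries lay above both BT-20 libraries for 31 members (42.8% of all genes), and both BT-20 libraries above both MDA-MB-468 libraries for 31 (34.7%). The SD of the difference over members was 0.586, against 1.24 over all genes tested. In this fit the 2 shRNA libraries of a line stand in for replicates, leaving 1 residual degree of freedom. Limma took the spread of each gene from a trend over all genes. The SE and p-value of a member therefore do not measure its own spread between these libraries, nor the variation between cultures. When each library was centred on its median, the median of all genes moved from 0.10 to -0.01 and the members' median was -0.11. Then 13 members were called higher in MDA-MB-468 and 22 in BT-20, with 7897 of 14321 genes called in either direction. After removal of the GC and length trend the counts were 12 and 27, with 8147 genes called. The members' median was then -0.099, where all genes had -0.018, and 49 members were lower in MDA-MB-468. The 50 genes nearest to a member in length and GC had a median of 0.1355. Against them 44 members lay below and 35 above, with a median difference of -0.1397.

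**Figure D4:**
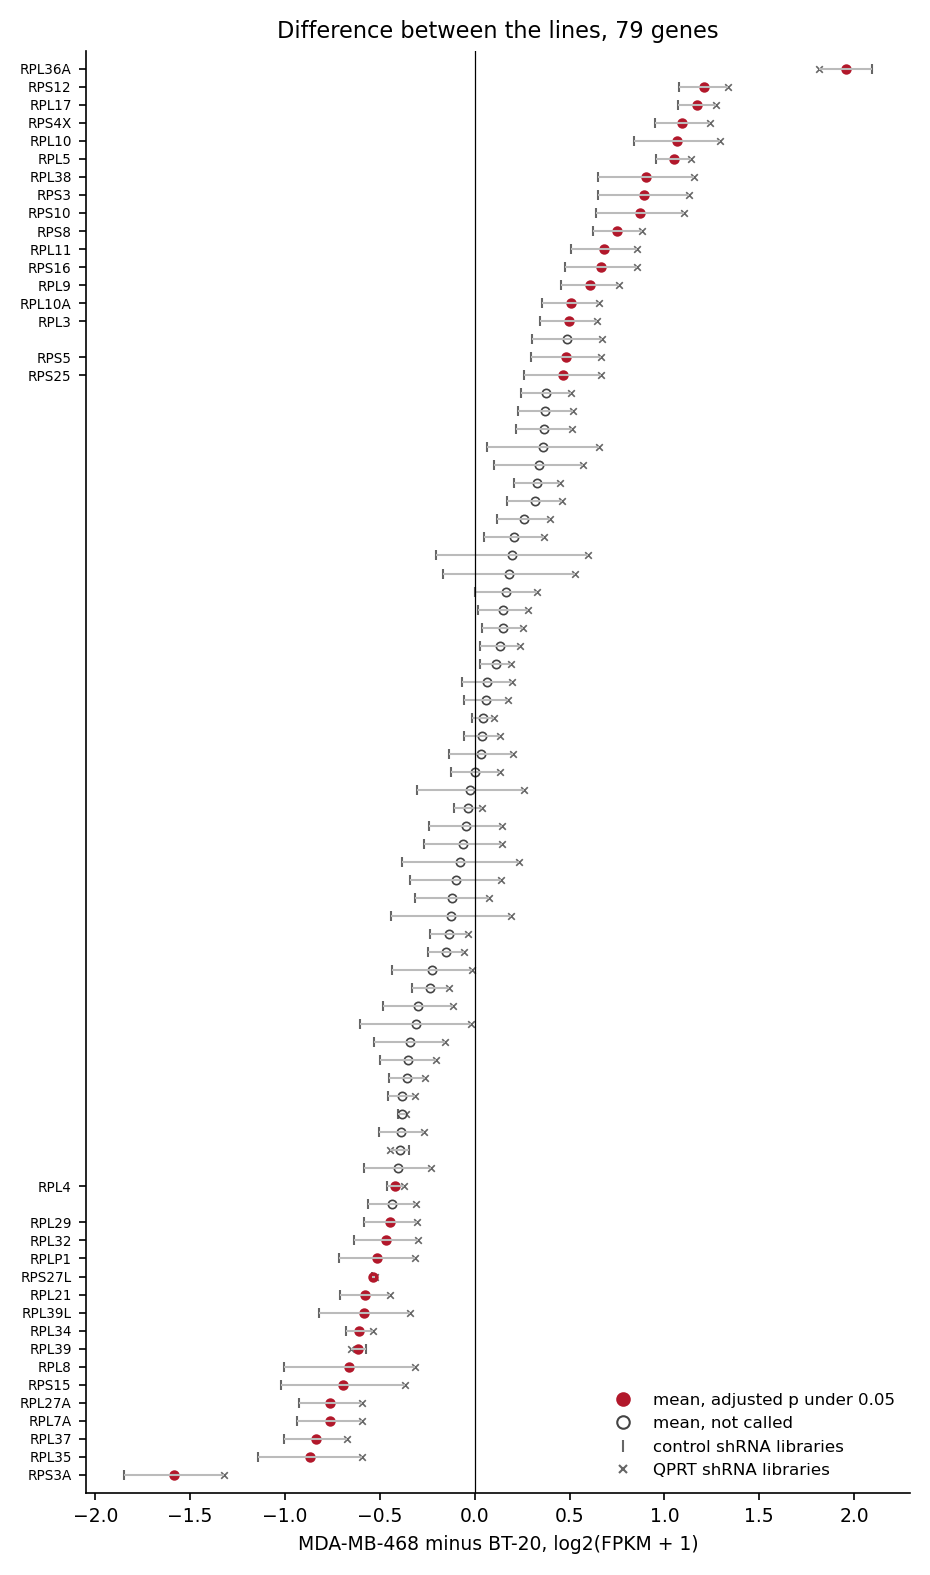
Difference between the lines, MDA-MB-468 minus BT-20 on the log2(FPKM + 1) scale, for 79 members in order, with the called members named. Circles are the mean of both shRNAs (red where limma gave an adjusted p under 0.05: 17 to the right, 16 to the left), bars join the control shRNA pair and the QPRT shRNA pair.

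Higher in BT-20, RPS3A stood clear of the rest. RPS3A, a small subunit protein near the mRNA exit, had 1137 and 878 FPKM in the BT-20 libraries and 314 and 351 FPKM in the MDA-MB-468 libraries, with no overlap. The difference was -1.58 ± 0.19 (SE), with an adjusted p of 3.55e-16 in limma. Its processed pseudogene RPS3AP6 was listed at 18.1, 20.2, 4.83 and 4.75 FPKM. The next were RPL35 (-0.87, adjusted p = 1.31e-05 in limma), RPL37 (-0.84, 2.9e-05), RPL7A (-0.76, 1.37e-04), RPL27A (-0.76, 1.46e-04) and RPS15 (-0.69, 5.84e-04). RPL35, which lies at the exit of the peptide tunnel, had 1687 and 1459 FPKM in BT-20 and 764 and 968 FPKM in MDA-MB-468. RPL37 had 721 and 678 FPKM in BT-20 and 359 and 425 FPKM in MDA-MB-468. The RPL35 and RPL37 libraries of BT-20 both lay above those of MDA-MB-468.

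Higher in MDA-MB-468, the leading members were RPL36A, RPS12, RPL17, RPS4X, RPL10 and RPL5. RPL36A, an X-linked gene, had 2.97 and 4.46 FPKM in BT-20 and 15.97 and 18.2 FPKM in MDA-MB-468, a difference of 1.96 ± 0.26 (SE; adjusted p = 4.47e-13 in limma). RPS12 had 814 and 829 FPKM in BT-20 and 1720 and 2096 FPKM in MDA-MB-468, 1.21 ± 0.19 (SE; adjusted p = 6.77e-10 in limma). RPL17 differed by 1.17 (adjusted p = 1.01e-04 in limma), at a level under 7 FPKM. Of these, RPL36A and RPL17 are among the members whose coding bases are shared with a read-through gene. Both also have pseudogene rows at similar levels, summing for RPL17 to 1.32 and 2.61 FPKM in BT-20 and 2.97 and 2.81 FPKM in MDA-MB-468. The part of these copies in the 2 differences was not tested. RPL5 had 678 and 620 FPKM in BT-20 and 1317 and 1368 FPKM in MDA-MB-468, a difference of 1.05 (adjusted p = 1.0e-07 in limma), and RPL11, its partner, differed by 0.68 (7.29e-04).

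Of the X-linked members, 3 were higher in MDA-MB-468 and 1 in BT-20. RPS4X, which has a Y-linked homologue, had 550 and 519 FPKM in BT-20 and 1062 and 1227 FPKM in MDA-MB-468, a difference of 1.09 (adjusted p = 2.74e-08 in limma). RPL10, needed for the subunits to join, had 883 and 744 FPKM in BT-20 and 1583 and 1825 FPKM in MDA-MB-468, 1.07 (5.92e-08). Its processed pseudogene RPL10P9 was listed at 0 in both BT-20 libraries and at 23.8 and 24.0 FPKM in MDA-MB-468. RPL39, at the peptide tunnel, was lower in MDA-MB-468, by -0.61 (adjusted p = 2.52e-03 in limma).

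A small set of members was called in every fit in which it was tested. The share of all genes called in every fit was not counted, and all fits drew on the same 4 libraries. The set includes RPL36A and RPL17, whose values are uncertain as gene levels. They rested on 24 to 143 and on 15 to 46 fragments per library. RPS3A, RPL36A, RPS12, RPL17, RPS4X, RPL10 and RPL5 were called in each of the 11 alternative settings in which they were tested (10 for RPL17) and after each of the 4 libraries was left out. Their highest adjusted p over the settings ranged from 0.0108 (RPL36A) to 0.0444 (RPL17). The other 26 calls were lost in at least 1 of these fits, and leaving out a library brought the count of called members from 33 to 11 or 12 and that of all genes from 7893 to 4475 to 4848. Those fits held 3 libraries and the line as the only term. With the line as the only term and all 4 libraries, 40 members and 7714 genes were called. RPL37 was lost only without the BT-20 control shRNA library (adjusted p = 0.0518), and RPL38 only without the MDA-MB-468 QPRT shRNA library (0.0553).

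The subunits are given side by side, and no test was made of the difference between them. Summed FPKM of large subunit members was 1.55 and 1.54 times that of small subunit members in BT-20 and 1.30 and 1.28 times in MDA-MB-468. Of 47 large subunit members, 9 were called higher in MDA-MB-468 and 13 higher in BT-20, with a median difference of -0.10. Of 32 small subunit members, 8 and 3 were called, with a median of 0.17. Over all genes tested 30.7% and 24.4% were called in these directions. The stalk genes RPLP1 and RPLP2 differed by -0.51 and -0.41 and RPLP0 by 0.17, and only RPLP1 was called (adjusted p = 0.0124 in limma). RPS6 (0.07), RPS19 (0.38) and RPSA (-0.31) were not called.

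The difference of a member between the lines went with that of its chromosome neighbours. For each member the median difference of the 20 nearest protein-coding genes that are not members was taken. Over the 79 members, Pearson's r between the member and its neighbours was 0.741 and Spearman's rho 0.725, and over the 69 members at 100 FPKM or more 0.809 and 0.768. Among 12145 other protein-coding genes r was 0.433 and rho 0.526, and among the 1354 of them at 100 FPKM or more 0.525 and 0.665. The relation was thus present in genes at large. The sign was that of the neighbours for 74.7% of all 79 members, 70.4% of the other genes and 74.8% of those at 100 FPKM or more. Among called genes it was so for 31 of 33 members (93.9%), 77.6% of 6673 other genes and 84.3% of the 822 of these at 100 FPKM or more. Neighbouring members share neighbours, and all values come from the same 4 libraries.

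Of the 21 chromosomes that carry tested members, 14 had a member median of the same sign as the median of their other genes and 7, with 21 members, the opposite sign. RPS3A, on chromosome 4, had neighbours with a median of -1.22, the lowest of any member, and RPS12, on chromosome 6, neighbours with 0.99, the highest. On chromosome 6 all 4 members were higher in MDA-MB-468, with a median of 0.69 where 633 other genes had 0.55. On chromosome 15 none of 4 members was higher, with a median of -0.47 where 371 other genes had -0.38. On chromosome 9 the medians were -0.43 for 4 members and -0.40 for 500 other genes. The 7 of opposite sign were chromosomes 4, 5, 8, 11, 12, 13 and 14. On chromosome 5 the 3 members had a median of -0.39 and the other genes 0.44, on chromosome 11 the 5 members -0.30 and the other genes 0.45, and on chromosome 4 the 3 members -0.61 and the other genes 0.02. RPL36A, at 1.96, had neighbours at 0.09.

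**Figure D5:**
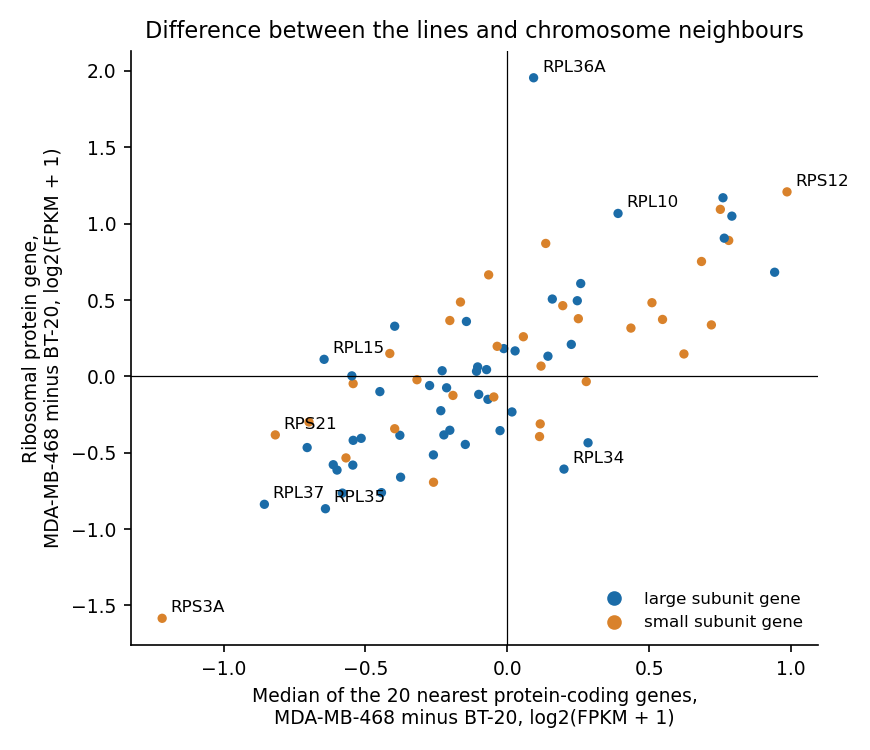
Difference between the lines of each of 79 members (y) against the median of its 20 nearest protein-coding genes (x), both MDA-MB-468 minus BT-20 on the log2(FPKM + 1) scale. The points rise together (r = 0.741), from RPS3A at the lower left to RPS12 at the upper right, with RPL36A above the rest.

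Among genes related to ribosome production, the small nucleolar RNA hosts were mostly higher in MDA-MB-468. Of 11 small nucleolar RNA host genes, 10 were called higher in MDA-MB-468 and 1, SNHG7, higher in BT-20, with a median difference of 0.95. Over all genes tested 30.7% were called higher in MDA-MB-468 and 24.4% higher in BT-20. SNHG5 had 23.08 and 23.02 FPKM in BT-20 and 156 and 164 FPKM in MDA-MB-468, and GAS5 229 and 247 against 661 and 772 FPKM. SNHG1 and SNHG6 were higher as well, by 2.19 and 1.12. Many of these host transcripts carry a TOP tract and hold small nucleolar RNAs in their introns. Among assembly factors, 6 of 23 were called in each direction: NPM1, a nucleolar histone chaperone, differed by 1.48 and FBL, the rRNA methyltransferase, by 1.25, while NOB1 and NIP7 differed by -1.43 and -1.32. EEF1A1 was higher in MDA-MB-468 by 1.32 and EEF2 higher in BT-20, with a difference of -0.996, among 4 and 3 calls in 15 other TOP genes. NAP1L1 and VIM were higher in MDA-MB-468, by 1.10 and 1.81.

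The counts of calls in the next lists stand beside the same shares of all genes tested, 30.7% higher in MDA-MB-468 and 24.4% higher in BT-20. Of 78 mitochondrial ribosomal protein genes, 23 were called higher in MDA-MB-468 and 12 higher in BT-20, with a median difference of 0.17. The 4 most different were MRPL4 (2.07), MRPL41 (-1.40), MRPS6 (1.27) and MRPL21 (1.18). Of the 7 ribosomal protein genes outside the rule, 3 were called higher in MDA-MB-468, among them RPL22L1 (0.95) and FAU (0.90), and RPL7L1 differed by 0.39 without a call. For RNA polymerase I, 2 of 11 genes were called higher in MDA-MB-468, POLR1E (1.60) and TAF1B (1.33), and TAF1C was called higher in BT-20 (-0.55), while POLR1B, at 0.50, was not called. Of 11 regulators, 5 were called higher in MDA-MB-468 and 2 higher in BT-20, among them RPS6KB2 (1.27), LARP1 (1.01), which binds TOP mRNAs, TSC1 (-1.01) and EIF4EBP2 (0.76). Of 41 pseudogene rows tested, 14 were called higher in MDA-MB-468 and 6 higher in BT-20.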

How the data were processed

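RNA of 4 stably transduced cultures was prepared with a TruSeq RNA kit and sequenced by the authors. The deposited values are FPKM, computed by the authors. The submitters' processing notes name CASAVA, FastQC, MultiQC, TopHat2 2.0.12 and HTSeq 0.6.1; genome build, annotation and strand setting are not given in the sources used here. The authors tested genes with DESeq2, which needs counts, so limma 3.58.1 (R 4.3.3) was used here on log2(FPKM + 1), a scale that understates changes of low genes, for genes whose 4 libraries averaged 1 FPKM or more, with eBayes on a trend, line and shRNA as terms, and Benjamini-Hochberg adjustment. The estimated prior degrees of freedom were infinite, so the spread of every gene was taken from the trend over all genes. Lengths, GC content and positions came from GENCODE 29 (GRCh38) and promoter windows from RefSeq (GRCh38.p14).

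FPKM times mean transcript length gave whole fragments within 0.02 for 97.63% to 97.81% of values of single-transcript genes (85.26% to 85.59% of all), from which counting intervals were computed. The trend on GC content and length was removed by lowess (fraction 0.3) within each library.

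The members, gene lists and tests were chosen with earlier results of these data known. Named members are the 5 highest and lowest by mean, the largest differences in each comparison, stalk, 5S, X-linked and paralogous genes, and RPSA, RPS6 and RPS19; of every other list up to 4 genes are named for the line difference. Other genes were named after their values were seen, and some genes that the rule names are not reported here. Alternatives were a pseudocount of 0.1, upper quartile scaling, TPM scaling, median centring, no filter, a mean FPKM of at least 5, removal of the GC and length trend, eBayes without the trend, limma-voom on recovered fragments, line as the only term, a 2-fold limit and each library left out; a minimum of 100 fragments and members at 100 FPKM or more were added after seeing the data.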

Additional observations from a re-analysis of the deposited data

Results flagged for a closer look

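The response to QPRT shRNA differed in sign between the lines. Of 79 ribosomal protein genes, 68 were lower in BT-20 and higher in MDA-MB-468 with QPRT shRNA than with control shRNA. The median over these genes of the MDA-MB-468 minus the BT-20 difference was 0.3031 on the log2(FPKM + 1) scale. The difference between the lines was not tested, because each line and shRNA had 1 library.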

How the results depend on the processing

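The members' median with QPRT shRNA ranged over the alternatives from -0.248 (median centring) to -0.0961 (TPM scaling) in BT-20 and from 0.1297 (GC and length trend removed) to 0.188 (members at 100 FPKM or more) in MDA-MB-468. That between the lines ranged from -0.1076 (median centring) to 0.0332 (members at 100 FPKM or more), and was -0.1649 in the control shRNA pair and 0.1774 in the QPRT shRNA pair. The count of members past 1.5-fold in BT-20 was 2 in place of 1 with a pseudocount of 0.1, with upper quartile scaling and with median centring, and 0 at a limit of 2-fold. The count called between the lines was 9 of 80 members without a filter on low values, and 11 to 12 when a library was left out, a fit with the line as the only term in which the lone library of a line is assumed to vary like the others. Calls over all genes fell as well in these fits. Without the filter 5691 of 28439 genes were called, against 7893 of 14321 with it. Other alternatives gave member counts within 1.5 times the 33 reported. No member was called with QPRT shRNA over both lines in any alternative. The fit for the shRNA had the line as a block, and without it 0 members were called as well. Members under 100 FPKM had few fragments and wide counting intervals.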
